A study of Mus musculus with 30 samples.

Results

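Transcription factors that establish or maintain the microglial lineage were followed in microglia sorted from mouse spinal cord, with sorted astrocytes as the reference. They were chosen by name and by no rule on their values, but with earlier results of these data known. The members are Spi1, Mef2a, Mef2c, Maf, Runx1, Cebpa, Cebpb, Bhlhe41 and Smad3, which are 9 of the 30952 genes in the table, all protein-coding. All mice were female C57BL/6. The naive mice (4) were given no treatment, and the others had experimental autoimmune encephalomyelitis (EAE), an autoimmune inflammation of the CNS brought on by immunization against MOG35-55 peptide at 8 to 10 weeks of age by the study's methods. At a clinical score of about 1 these received 20% Captisol, a cyclodextrin vehicle (EAE-vehicle, 6 mice), or the RIPK1 kinase inhibitor GSK'547 at 50 mg/kg (EAE-RIPK1inh, 5 mice), orally and BID for 3 days. RIPK1 is a kinase that directs inflammatory and cell death signaling, and it was inhibited by a compound in every cell type of the mouse, so the groups are not a model of its loss in microglia alone. Microglia were sorted as CD11b+CD45intCX3CR1+ cells and astrocytes as GLAST+CD11b-CD45-CD140a- cells, which gave 15 libraries of each. Naive mice were not immunized, so immunization, disease and vehicle cannot be told apart in the comparison of EAE-vehicle with naive mice. Levels are log2 FPKM (fragments scaled to exon length and to the mapped total), quantile-normalized by the authors over all 30 libraries. One unit is a doubling of FPKM plus an offset that is not given in the sources used here, and the depth of the libraries is unknown.

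Microglia arise from yolk sac progenitors, and their identity rests on a hierarchy of DNA-binding factors. PU.1, the product of Spi1, opens myeloid enhancers together with C/EBP and RUNX1, while MEF2, MAF, SMAD and BHLHE41 proteins act with it at enhancers of mature tissue macrophages, SMAD3 as the carrier of the TGF-β signal that the brain provides. These factors shape which genes a microglial cell can transcribe, and several of them are known to decline in microglia that leave the homeostatic state.

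The promoters of the members were read from RefSeq (GRCm38.p6), and the 250 bases before each start site were searched on both strands for the motifs that the factors themselves bind. RefSeq entries were at hand for 7 of 9 members, in 10 windows, and Spi1 and Maf had none. CACGTG, the E-box bound by BHLHE41 and its paralogue BHLHE40, was found in 2 windows, before Bhlhe41 itself and before the distal start of Runx1, and in 6.02% of 32851 mouse promoter windows of the same length. None of the 10 windows held the PU.1 motif GAGGAAGT (2.44% of all windows), the MEF2 consensus (2.92%), the C/EBP motif TTGCNNCAA (1.74%), the RUNX motif TGTGGT (14.0%) or the SMAD palindrome GTCTAGAC (0.167%). A match describes letters and shows no binding. The 2 sequences with an E-box are shown because BHLHE40 and Runx1 both enter the results, with the E-box in capitals. The first holds 112 bases upstream of the deposited Bhlhe41 gene (chr6:145865559-145865670, minus strand), and the second holds 30 bases around the E-box of Runx1 (chr16:92826128-92826157, minus strand), which lies inside the deposited gene.
Bhlhe41: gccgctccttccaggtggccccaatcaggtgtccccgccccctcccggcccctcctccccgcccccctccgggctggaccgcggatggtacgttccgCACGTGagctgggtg
Runx1: catcacttaagtCACGTGattggcaagagc
A further set of windows, with no letters in capitals, show how unlike the members' promoters are in base composition. Smad3 (chr9:63757995-63758244, minus strand, 69.2% GC) and Mef2a (chr7:67372859-67373108, minus strand, 61.6% GC) precede 2 genes that fell in EAE, and Cebpb (chr2:167688665-167688914, plus strand, 81.6% GC) precedes the only member with a higher mean there.
Smad3: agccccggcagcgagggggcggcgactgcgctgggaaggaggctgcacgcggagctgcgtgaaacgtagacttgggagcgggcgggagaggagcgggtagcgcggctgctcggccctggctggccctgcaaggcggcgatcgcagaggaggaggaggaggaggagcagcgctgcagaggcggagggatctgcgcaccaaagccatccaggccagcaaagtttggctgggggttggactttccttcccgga
Mef2a: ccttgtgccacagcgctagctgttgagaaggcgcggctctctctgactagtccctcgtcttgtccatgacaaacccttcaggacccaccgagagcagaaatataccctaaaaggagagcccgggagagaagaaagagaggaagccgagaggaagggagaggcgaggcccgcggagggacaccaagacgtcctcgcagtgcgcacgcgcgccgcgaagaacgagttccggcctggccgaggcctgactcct
Cebpb: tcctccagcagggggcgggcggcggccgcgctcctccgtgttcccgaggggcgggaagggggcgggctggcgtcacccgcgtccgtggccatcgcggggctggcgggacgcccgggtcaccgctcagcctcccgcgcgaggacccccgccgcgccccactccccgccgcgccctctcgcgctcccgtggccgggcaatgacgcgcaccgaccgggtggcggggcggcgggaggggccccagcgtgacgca
The GC content of the 10 windows ran from 33.6% for a start of Mef2c to the 81.6% of Cebpb, and the median of all mouse windows was 52.4%. The GC box GGGCGG, present in 32.7% of all windows, was found in 4 of the 10.

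Before the factors were compared, the labels were checked against marker genes. The mean of 10 microglial markers ran from 11.05 to 12.58 log2 FPKM in microglia libraries and from 1.34 to 5.98 in astrocyte libraries, and the mean of 8 astrocyte markers from 0.92 to 2.05 and from 7.46 to 10.20. Between the microglial and the astrocyte list, all libraries matched their labelled cell type. The microglia libraries differed most in 9 monocyte and neutrophil markers, whose mean ran from 2.60 to 7.79 in naive, from 3.28 to 8.02 in EAE-vehicle and from 2.70 to 9.06 in EAE-RIPK1inh libraries. Astrocyte libraries held 7 oligodendrocyte markers at a mean of 6.19 to 9.91. Those markers averaged (mean ± SD) 6.63 ± 0.57 in naive, 8.77 ± 1.26 in EAE-vehicle and 8.54 ± 0.55 in EAE-RIPK1inh astrocytes. Astrocyte markers averaged 9.93 ± 0.38, 8.19 ± 0.53 and 9.06 ± 0.59 there, below the oligodendrocyte mean in EAE-vehicle. In astrocyte libraries 6 neuronal markers had a mean of 3.9 to 6.1. What other cells contributed to the astrocyte values was not tested. Between 8710 and 20398 genes had signal in a microglia library and between 6728 and 22981 in an astrocyte library, lowest in naive microglia replicate 4 and EAE-vehicle astrocytes replicate 1. All 135 values of the 9 members in microglia had signal, against 98 of 135 in astrocytes. In sorted bulk samples, fewer cells of a type and less RNA per cell cannot be told apart.

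In naive microglia the members spanned a wide range of levels, the lowest near the limit of signal. Bhlhe41 (7.38 ± 1.06, mean ± SD, n = 4) and Spi1 (7.38 ± 0.68) stood first, followed by Mef2a (7.01 ± 0.44), Mef2c (6.80 ± 0.95), Maf (5.39 ± 0.57), Cebpa (5.29 ± 0.72), Runx1 (4.85 ± 0.64), Smad3 (4.07 ± 0.62) and Cebpb (1.93 ± 0.66), all in log2 FPKM, a scale per exon length. The ranges of all neighbours in this order overlapped, except those of Smad3 and Cebpb. In EAE-vehicle microglia Spi1 stood first in the order of means (7.00 ± 0.18, n = 6), above Bhlhe41 (6.25 ± 0.84), with ranges that overlapped. Spi1 was more than 1 unit above Mef2c (5.15 ± 0.55) and Mef2a (5.06 ± 0.30) on average. Smad3 (2.20 ± 0.84) had passed below Cebpb (2.40 ± 1.20) there, with ranges that overlapped.

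**Figure D1:**
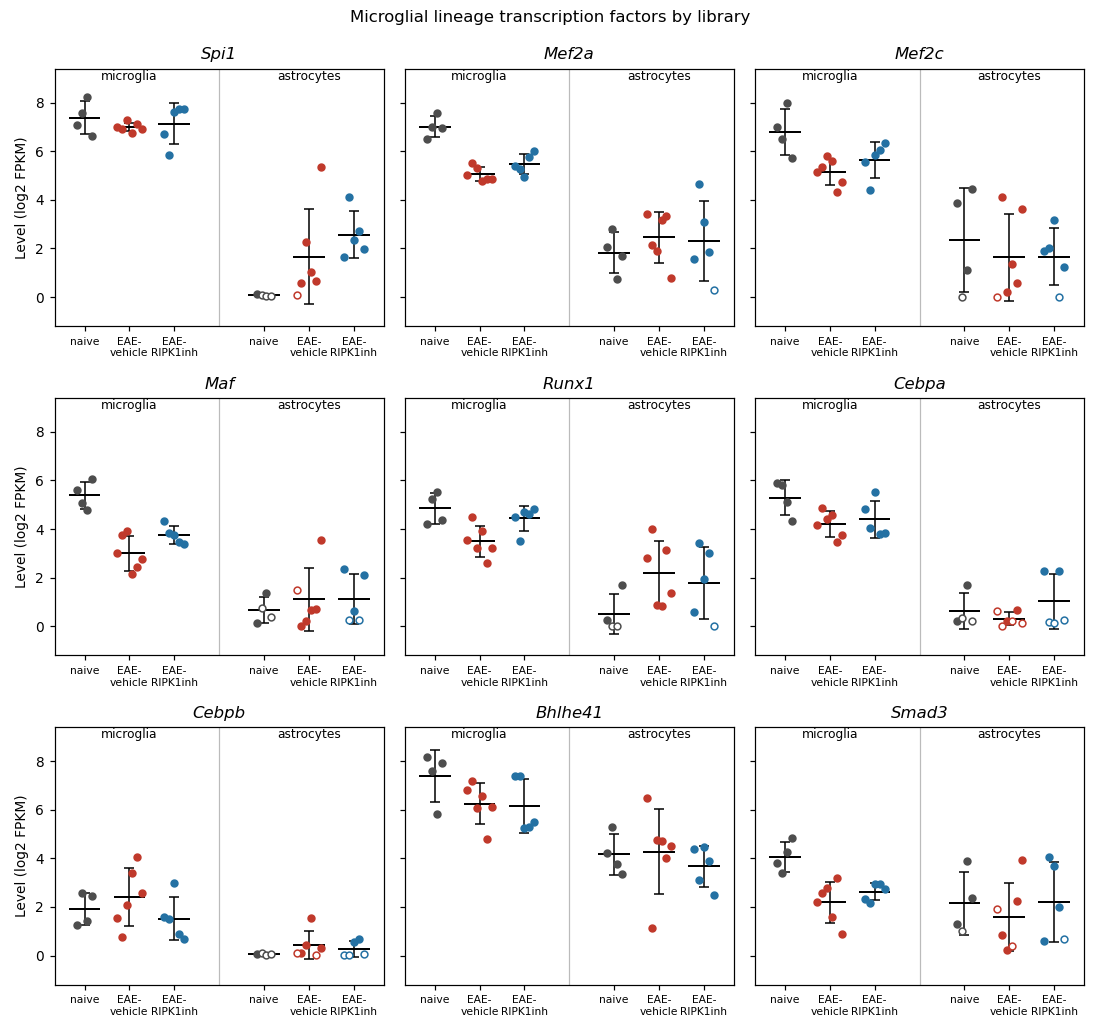
Level of each of the 9 factors in log2 FPKM (vertical axis) in every library, by cell type and group (horizontal axis). Points are libraries, open where the gene had no signal, and the bar with whiskers is the mean ± SD. Mef2a, Maf and Smad3 lay lower in all 6 EAE-vehicle than in all 4 naive microglia libraries, while the EAE-vehicle values of Spi1 stayed between 6.76 and 7.29.

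In EAE-vehicle against naive microglia, 6 of 9 members were called lower and none was called higher, and the median difference of the 9 was -1.36, against -0.02 over all genes tested. A call here follows the cutoff of the study, an unadjusted limma p under 0.05 together with a more than 1.5-fold difference, and 5.86% of 28957 genes tested were called lower. After Benjamini-Hochberg adjustment over all genes, Mef2a, Maf and Smad3 fell at an adjusted p under 0.05 (limma), where 1.56% of all genes did. The same 3 members had no overlap between the groups, which was true in this direction of 2.33% of all genes. With the 2 microglia libraries of under 11000 genes with signal left out, an alternative chosen after the data were seen, 6 members were called, and Mef2a, Maf and Mef2c, but not Smad3 (adjusted p = 0.0614), passed the adjusted threshold. There 3394 of all genes were called in either direction and 1101 passed, against 3473 and 1136 with all libraries.

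Spi1 (ENSMUSG00000002111, chr2:91082390-91115756, plus strand, GRCm38), the gene of PU.1, was the least altered of the highly expressed members. Its log2 FPKM was 7.09, 7.59, 8.22 and 6.63 in naive microglia, 6.98, 6.92, 7.29, 6.76, 7.11 and 6.92 in EAE-vehicle microglia and 6.72, 5.86, 7.62, 7.73 and 7.75 in EAE-RIPK1inh microglia. The 6 EAE-vehicle values lay inside the range of the naive ones and close together, and the EAE-RIPK1inh values were the more widely spread. The difference of EAE-vehicle from naive was -0.39 ± 0.37 (SE), with an adjusted p of 0.747 (limma) and an exact two-sided permutation p of 0.229. The paralogues Spib and Spic, which PU.1 resembles in its DNA-binding domain, were near 0, with means of at most 0.22 and 0.07 in the 3 microglia groups.

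Of 12 myeloid genes known to be driven by PU.1, 2 rose and 1 fell at an adjusted p under 0.05 (limma) in EAE-vehicle microglia, and their median difference was -0.23. Cybb, the catalytic subunit of the phagocyte NADPH oxidase, rose by 4.65 ± 0.34 (SE, adjusted p = 1.63e-06), from 2.24 ± 0.71 to 6.89 ± 0.37 log2 FPKM, and Aif1, the microglial marker IBA1, rose by 0.92 ± 0.20 (adjusted p = 0.0177). Csf1r, the receptor on which microglial survival depends, fell by 1.76 ± 0.46 (adjusted p = 0.0461), from 10.84 ± 0.80 to 9.08 ± 0.32. These genes moved in both directions while Spi1 itself differed by less than its spread in naive libraries.

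Runx1 (ENSMUSG00000022952, chr16:92601466-92826149, minus strand), a RUNX factor needed in early myeloid and microglial development, was called lower in EAE. Its log2 FPKM was 4.22, 5.25, 5.54 and 4.39 in naive, 3.54, 4.49, 3.21, 3.91, 2.59 and 3.22 in EAE-vehicle and 4.50, 3.53, 4.71, 4.62 and 4.82 in EAE-RIPK1inh microglia. All but 1 EAE-vehicle library lay below the lowest naive one, and 4 of 5 EAE-RIPK1inh libraries lay above every EAE-vehicle library. EAE-vehicle differed from naive by -1.36 ± 0.39 (2.56-fold lower, unadjusted p = 0.00356, adjusted p = 0.0734 in limma, exact permutation p = 0.019). Runx2 averaged 0.69 ± 0.81 in naive and 0.05 ± 0.08 in EAE-vehicle microglia, and Runx3 differed by -0.05 ± 0.19. Cbfb, the subunit that stabilizes RUNX proteins on DNA, was called higher, by 0.80 ± 0.37 (unadjusted p = 0.0472, adjusted p = 0.36).

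The 2 MEF2 factors, which bind A/T-rich elements at enhancers of homeostatic microglial genes, were both called lower. Mef2a (ENSMUSG00000030557, chr7:67231163-67372858, minus strand) stood at 6.50, 7.01, 7.58 and 6.96 log2 FPKM in naive, at 5.02, 5.52, 5.31, 4.77, 4.84 and 4.86 in EAE-vehicle and at 5.39, 5.26, 4.92, 5.77 and 5.99 in EAE-RIPK1inh microglia. Every naive library was above every library of both EAE groups. Mef2a fell in EAE-vehicle by 1.95 ± 0.25 on the log2 scale (3.87-fold lower, adjusted p = 0.000346 in limma, exact permutation p = 0.00476, the smallest that 210 splits allow), and it passed the adjusted threshold with each library left out in turn.

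Mef2c (ENSMUSG00000005583, chr13:83504034-83667080, plus strand) had 7.00, 6.51, 7.98 and 5.72 log2 FPKM in naive, 5.14, 5.34, 5.79, 5.58, 4.31 and 4.72 in EAE-vehicle and 5.54, 4.38, 5.85, 6.06 and 6.34 in EAE-RIPK1inh microglia. Of the EAE-vehicle libraries only replicate 3, and of the EAE-RIPK1inh libraries replicates 3, 4 and 5, reached above the lowest naive library, which was replicate 4, the naive library with the fewest genes with signal. The difference was -1.66 ± 0.45 (3.15-fold lower, unadjusted p = 0.00252, adjusted p = 0.0592, limma), and without naive replicate 4 it was -2.02 with an adjusted p of 0.0203. Mef2d, the third MEF2 gene of microglia, differed by -1.12 ± 0.58 and was not called. Mef2a exceeded Mef2d in all 15 libraries, by 3.17 ± 0.35 in naive, 2.34 ± 0.70 in EAE-vehicle and 2.32 ± 1.39 in EAE-RIPK1inh microglia, while Mef2a and Mef2c stayed within 1 unit of each other on average (mean differences of 0.21, -0.09 and -0.17).

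Maf (ENSMUSG00000055435, chr8:115682942-115707794, minus strand) encodes c-MAF, a large MAF factor that limits self-renewal of macrophages. It had the largest fall among the members. Its log2 FPKM was 5.60, 5.08, 4.80 and 6.08 in naive, 3.02, 3.74, 3.91, 2.14, 2.42 and 2.77 in EAE-vehicle and 4.34, 3.84, 3.76, 3.46 and 3.37 in EAE-RIPK1inh microglia. Neither EAE group overlapped with the naive one. Maf fell by 2.39 ± 0.37 (5.24-fold lower, adjusted p = 0.00151 in limma, exact permutation p = 0.00476). The small MAF proteins Maff (0.27 ± 0.36), Mafg (1.02 ± 0.67) and Mafk (-0.71 ± 0.66), which lack an activation domain, were not called.

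The C/EBP factors did not move together. Cebpa (ENSMUSG00000034957, chr7:35119293-35121928, plus strand), required for myeloid progenitors and for adult microglia, had 5.90, 5.82, 5.11 and 4.34 log2 FPKM in naive, 4.18, 4.88, 4.40, 4.58, 3.45 and 3.74 in EAE-vehicle and 4.84, 4.05, 5.53, 3.78 and 3.83 in EAE-RIPK1inh microglia. The groups overlapped, with 3 of 6 EAE-vehicle libraries below the lowest naive one. EAE-vehicle differed from naive by -1.09 ± 0.42 (unadjusted p = 0.0202, adjusted p = 0.218, limma; exact permutation p = 0.0429), and the call was lost without naive replicate 1 (-0.89) or naive replicate 2 (-0.91).

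Cebpb (ENSMUSG00000056501, chr2:167688915-167690418, plus strand), which drives inflammatory gene transcription in activated myeloid cells, was low and variable. It had 1.27, 2.56, 1.44 and 2.44 log2 FPKM in naive, 1.56, 0.78, 2.07, 3.40, 4.05 and 2.57 in EAE-vehicle and 1.58, 1.51, 2.96, 0.90 and 0.67 in EAE-RIPK1inh microglia. EAE-vehicle replicates 4 and 5 were above every naive and EAE-RIPK1inh library, and replicate 2 was below every naive one. The difference from naive was 0.48 ± 0.62 (adjusted p = 0.785, limma; exact permutation p = 0.481). Cebpa exceeded Cebpb in all naive libraries, by 3.37 ± 1.13, and in 5 of 6 EAE-vehicle libraries, by 1.80 ± 1.60.

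Among the other C/EBP genes, Cebpd, an early inflammatory response gene in many tissues, was called lower (-1.54 ± 0.44, unadjusted p = 0.00369, adjusted p = 0.0746, limma), and Cebpe, a factor of the neutrophil lineage, averaged 1.21 ± 2.42, 3.74 ± 1.69 and 1.64 ± 2.17 log2 FPKM in naive, EAE-vehicle and EAE-RIPK1inh microglia, where 1, 6 and 3 libraries had signal. The neutrophil and monocyte markers given above varied in the same libraries, and their part in the C/EBP values was not tested. None of these 9 markers passed an adjusted p of 0.05 in EAE-vehicle against naive microglia (limma), 2 of them, Ly6c2 and Plac8, were called higher, and their median difference was 1.48.

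Smad3 (ENSMUSG00000032402, chr9:63646767-63757994, minus strand), the receptor-activated SMAD that carries TGF-β signals into the nucleus, fell in EAE. Its log2 FPKM was 3.81, 3.39, 4.25 and 4.83 in naive, 2.19, 2.56, 2.79, 1.58, 3.19 and 0.89 in EAE-vehicle and 2.34, 2.16, 2.94, 2.95 and 2.72 in EAE-RIPK1inh microglia. All 11 libraries of mice with EAE lay below all 4 naive ones. The difference was -1.87 ± 0.43 (3.66-fold lower, adjusted p = 0.0215 in limma, exact permutation p = 0.00952), and the adjusted p rose to 0.0588 without naive replicate 3 and to 0.062 without naive replicate 4. It stayed under 0.05 in 7 of 11 other settings. Smad2, the other SMAD of this pathway, was called lower by a difference of -0.98 ± 0.35 (unadjusted p = 0.0144, adjusted p = 0.178), and Smad4, the shared partner of both, differed by 0.55 ± 0.58 and was not called.

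Of 16 genes for TGF-β ligands, receptors, activators and inhibitors, 1 fell and none rose at an adjusted p under 0.05 (limma), 3 were called lower and none higher, and their median difference was -0.52. The one that fell was the type I receptor gene Tgfbr1, by 2.72 ± 0.33 (adjusted p = 0.000163), from 8.40 ± 0.29 in naive to 5.68 ± 0.58 log2 FPKM in EAE-vehicle microglia. The type II receptor gene Tgfbr2 was called lower (-1.08 ± 0.34, unadjusted p = 0.00623, adjusted p = 0.106), as was Nrros (-0.80 ± 0.29, unadjusted p = 0.0145, adjusted p = 0.179), which anchors latent TGF-β on microglia. The ligand Tgfb1 (-0.69 ± 0.41) and the feedback inhibitor Smad7 (-0.16 ± 0.41) were not called.

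Bhlhe41 (ENSMUSG00000030256, chr6:145858243-145865558, minus strand), a repressor of the basic helix-loop-helix family that is abundant in microglia, was the most variable of the highly expressed members. It had 8.17, 7.60, 5.84 and 7.92 log2 FPKM in naive, 6.81, 7.20, 6.07, 6.54, 4.78 and 6.11 in EAE-vehicle and 7.38, 7.38, 5.25, 5.28 and 5.49 in EAE-RIPK1inh microglia. Naive replicate 3 stood below most EAE-vehicle libraries, and the EAE-RIPK1inh libraries fell into 2 that were high and 3 that were low. EAE-vehicle differed from naive by -1.13 ± 0.60 (adjusted p = 0.469, limma; exact permutation p = 0.0905), which was no call, and without naive replicate 3 the difference was -1.65 and was called (unadjusted p = 0.0146, adjusted p = 0.184).

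Its paralogue Bhlhe40, which binds the same E-box and is induced by many stimuli in immune cells, rose by 2.55 ± 0.53 (adjusted p = 0.0119, limma). Bhlhe40 had 0.08, 2.77, 0.50 and 0.27 log2 FPKM in naive microglia, where 2 of 4 libraries had signal, and 3.48, 3.37, 2.43, 3.97, 3.70 and 3.77 in EAE-vehicle microglia. Only naive replicate 2 was above the lowest EAE-vehicle library. Bhlhe41 exceeded Bhlhe40 in all 15 libraries, by 4.83 to 8.09 in naive, by 1.07 to 3.83 in EAE-vehicle and by 1.19 to 5.34 in EAE-RIPK1inh microglia, so that the naive and EAE-vehicle ranges of this difference did not overlap. Bhlhe40 was the only one of 18 paralogues and partners of the members to pass an adjusted p of 0.05, and the median difference of those 18 was -0.07.

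**Figure D2:**
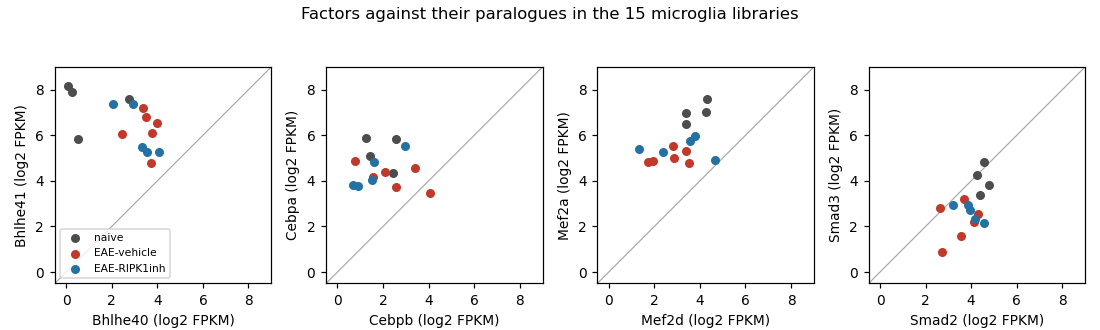
Log2 FPKM of 4 members (vertical axes) against a paralogue (horizontal axes) in the 15 microglia libraries, colored by group. The line marks equal levels. In the first panel all libraries lie above the line and the 6 EAE-vehicle libraries lie nearer to it than the 4 naive ones.

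Other genes known for microglial identity were compared in the same fit. Of 16 further lineage factors, 4 fell and none rose at an adjusted p under 0.05 (limma), 9 were called lower and none higher, and their median difference was -0.85. Among those with an adjusted p under 0.05, the 3 largest falls were those of Klf4 (-3.96 ± 0.59, adjusted p = 0.00107), a zinc-finger factor of monocyte and macrophage differentiation, Fli1 (-1.63 ± 0.37, adjusted p = 0.0213), an ETS factor, and Hhex (-1.60 ± 0.31, adjusted p = 0.00708), a homeobox factor, and the last was Ikzf1 (-0.94 ± 0.22, adjusted p = 0.0283), the lymphoid and myeloid factor Ikaros. Klf2, a zinc-finger factor of the same family as Klf4, was called lower by a larger difference than Fli1 with a wider error (-2.45 ± 0.66, adjusted p = 0.0554). Sall1, a zinc-finger factor characteristic of microglia among macrophages, was called lower (-1.02 ± 0.34, adjusted p = 0.141), and Irf8, which pairs with PU.1 on DNA, was too (-0.76 ± 0.33, adjusted p = 0.314).

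All 12 homeostatic microglial genes were called lower, and 11 passed the adjusted threshold, with a median difference of -2.64. This list overlaps with the microglial markers used to check the labels, and its fall was known from earlier results of these data. The 3 largest falls were those of Fcrls (-5.72 ± 0.75, adjusted p = 0.000371), P2ry12 (-4.16 ± 0.39, adjusted p = 1.45e-05), the purinergic receptor of process motility, and Gpr34 (-4.14 ± 0.63, adjusted p = 0.00119). The medians of the 9 members and of the 16 other factors lay between that of the homeostatic genes and the -0.02 of all genes.

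**Figure D3:**
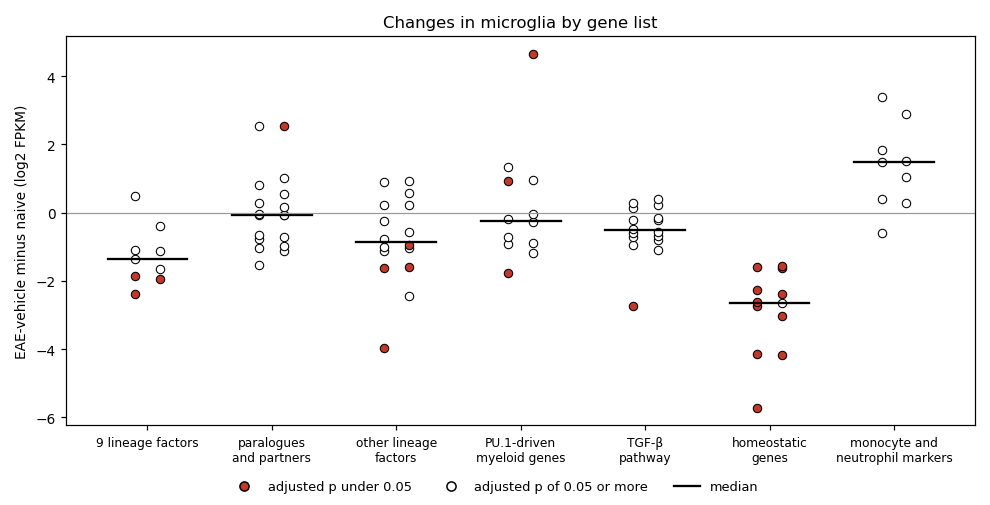
Difference in log2 FPKM between EAE-vehicle and naive microglia (vertical axis) for each gene of 7 lists (horizontal axis). Points are genes, filled where the adjusted p was under 0.05, and bars are medians. The median was -1.36 for the 9 lineage factors, -2.64 for homeostatic genes and 1.48 for monocyte and neutrophil markers.

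The second comparison asked whether inhibition of RIPK1 altered these factors in mice with EAE. In EAE-RIPK1inh against EAE-vehicle microglia, Runx1 and Maf were called higher, where 1.06% of all genes were, and no member passed an adjusted p of 0.05 (limma), a threshold that 0.00345% of all genes passed. At an unadjusted p under 0.05 the same 2 of 9 members passed, where 2.87% of all genes did in either direction. Runx1 differed by 0.94 ± 0.36 (1.93-fold higher, unadjusted p = 0.0211, adjusted p = 0.93, exact permutation p = 0.0281), and this call was lost without EAE-vehicle replicate 5 (0.76) or EAE-RIPK1inh replicate 5 (0.85). Maf differed by 0.75 ± 0.35 (1.69-fold higher, unadjusted p = 0.0491, adjusted p = 0.93, exact permutation p = 0.0649), and it was called in only 3 of 11 fits that left out 1 library, with differences from 0.58 to 0.94.

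The remaining members were not called with the inhibitor. Mef2a (0.41 ± 0.24), Mef2c (0.49 ± 0.42), Smad3 (0.42 ± 0.40), Cebpa (0.20 ± 0.39) and Spi1 (0.14 ± 0.35) had higher means, and Bhlhe41 (-0.09 ± 0.56) and Cebpb (-0.88 ± 0.58) lower ones. Their adjusted p-values were 0.93 or above (limma) and their exact permutation p-values ran from 0.0952 for Mef2a to 0.885 for Bhlhe41. No gene of the 18 paralogues and partners, the 16 other lineage factors, the 12 PU.1-driven genes, the 16 TGF-β genes or the 12 homeostatic genes passed the adjusted threshold, and unadjusted calls were 1 PU.1-driven gene and 4 homeostatic genes, all higher.

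With array quality weights, a setting that gives libraries unequal influence, 5 members were called, Runx1 (1.43, adjusted p = 0.0491, limma), Mef2c (1.11), Maf (0.84) and Mef2a (0.75) higher and Cebpb (-1.79) lower, but the number of all genes called also rose from 511 to 2730.

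**Figure D4:**
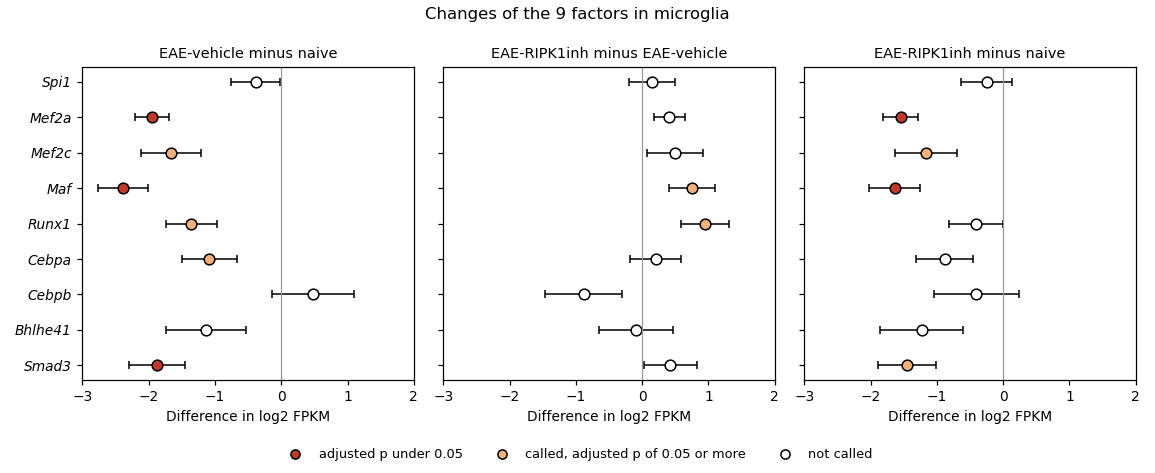
Difference in log2 FPKM (horizontal axes) for each member (vertical axis) in the 3 microglia comparisons, with whiskers of 1 SE. Filled points are calls, dark where the adjusted p was also under 0.05. In the first panel 6 members were called, all lower, and in the middle panel Maf and Runx1, both higher, with no dark point.

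Set against naive microglia, the EAE-RIPK1inh libraries had 4 members called lower, Mef2a, Maf, Smad3 and Mef2c, where 4.71% of all genes were called lower, and Mef2a and Maf fell at an adjusted p under 0.05, where 0.922% of all genes did. This comparison shares the naive libraries with the first and the EAE-RIPK1inh libraries with the second, so its values are not independent of either. Mef2a differed by -1.54 ± 0.26 (adjusted p = 0.00416, limma; exact permutation p = 0.00794, the smallest that 126 splits allow), and Maf by -1.64 ± 0.39 (adjusted p = 0.0375), which stayed under 0.05 in 2 of 9 fits that left out 1 library. Smad3 differed by -1.45 ± 0.44 (adjusted p = 0.126). The groups did not overlap for Mef2a, Maf or Smad3, but the share of all genes without overlap was not computed for this comparison. Mef2c differed by -1.17 ± 0.47 (adjusted p = 0.301), a call lost without naive replicate 1 (-1.10), naive replicate 3 (-0.77) or EAE-RIPK1inh replicate 2 (-0.85). Runx1 was not called (-0.41 ± 0.40, adjusted p = 0.619), with group means of 4.44 ± 0.52 against 4.85 ± 0.64. In 7 of 9 members the EAE-RIPK1inh mean lay between those of naive and EAE-vehicle microglia, which was the case for 28.4% of all genes, and the exceptions were Bhlhe41 and Cebpb. That share covers all genes tested, many of which hardly differed between naive and EAE-vehicle microglia, which leaves little room between their means. It is therefore no baseline for members with a wide difference.

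In astrocytes the members were lower, and 8 of 9 were higher in naive microglia at an adjusted p under 0.05 (limma), where 5.94% of 30952 genes were. Spi1 showed the largest separation, 7.38 ± 0.68 in naive microglia against 0.06 ± 0.04 log2 FPKM in naive astrocytes, where it had signal in 1 of 4 libraries. The difference was smallest for Cebpb (1.87 ± 0.56, adjusted p = 0.0251) and Smad3 (1.93 ± 0.79, unadjusted p = 0.0211, adjusted p = 0.133). Bhlhe41 was the most abundant member in astrocytes, at 4.16 ± 0.84 in naive libraries, 3.22 ± 0.79 (SE) below naive microglia, and its paralogue Bhlhe40 was at 5.41 ± 0.57 there. With 4 libraries against 4, the exact permutation test cannot go below 0.0286, a value reached by all members but Smad3, whose groups overlapped.

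In EAE-vehicle mice 7 of 9 members were higher in microglia than in astrocytes at an adjusted p under 0.05 (limma), where 7.89% of all genes were, and in EAE-RIPK1inh mice 7 of 9, where 7.18% were. The members that missed it were Runx1 (1.32 ± 0.58, adjusted p = 0.147) and Smad3 (0.60 ± 0.64, adjusted p = 0.606) in the first, and Cebpb (1.25 ± 0.50, adjusted p = 0.111) and Smad3 (0.42 ± 0.71, adjusted p = 0.834) in the second. Maf differed between the cell types by 4.73 ± 0.62 in naive, 1.89 ± 0.50 in EAE-vehicle and 2.62 ± 0.55 in EAE-RIPK1inh mice.

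Within astrocytes no member was called in EAE-vehicle against naive mice, where 6.71% of 30718 genes were called in either direction, nor in EAE-RIPK1inh against EAE-vehicle mice, where 3.02% were, and 0 of 9 had an unadjusted p under 0.05 in limma in either comparison, where 6.92% and 3.25% of all genes did. Spi1, with signal in 1 of 4 naive astrocyte libraries, had values of 0.10, 0.57, 2.26, 1.04, 0.67 and 5.35 in EAE-vehicle and 1.64, 4.13, 2.33, 2.71 and 1.99 in EAE-RIPK1inh astrocytes, with a difference of 1.60 ± 0.88 between EAE-vehicle and naive (adjusted p = 0.834). The highest value was in EAE-vehicle replicate 6, which also had the highest mean of microglial markers among astrocyte libraries, 5.98. The next highest, 4.13 in EAE-RIPK1inh replicate 2, came with the lowest mean of microglial markers among astrocyte libraries of mice with EAE, 3.61. These markers averaged 2.45 ± 0.98 in naive, 4.95 ± 0.62 in EAE-vehicle and 4.21 ± 0.50 in EAE-RIPK1inh astrocytes. In the same order, 8 T cell markers averaged 0.50 ± 0.37, 4.02 ± 1.79 and 3.24 ± 1.97. The 9 monocyte and neutrophil markers averaged 0.59 ± 0.56, 3.32 ± 0.94 and 2.85 ± 1.82. The part of any of these lists in the astrocyte values of the members was not tested. Mef2c ran from 0 to 4.44 log2 FPKM and Smad3 from 0.24 to 4.06 in astrocytes, each over nearly its whole span within single groups.

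Whether the change with EAE differed between the cell types was tested as an interaction in a fit of all 30 libraries. Both cell types were sorted from the same cohort of mice and no label links the libraries of a mouse, so this fit and the comparisons of microglia with astrocytes treat them as independent. No member passed an adjusted p of 0.05, where 0.982% of all genes did, and 4 of 9 had an unadjusted p under 0.05 (limma), where 9.06% of all genes did. The largest differences between the changes were those of Runx1 (-3.03 ± 0.91, adjusted p = 0.123), Maf (-2.84 ± 0.80, adjusted p = 0.0845), Mef2a (-2.57 ± 0.83, adjusted p = 0.173) and Spi1 (-1.99 ± 0.95, adjusted p = 0.532), all lower in microglia than in astrocytes. The changes in microglia and in astrocytes were -1.36 and 1.68 for Runx1, and -0.39 and 1.60 for Spi1. They were -2.39 and 0.45 for Maf, and -1.95 and 0.62 for Mef2a. In naive astrocytes Runx1 had signal in 2 and Spi1 in 1 of 4 libraries. Maf and Mef2a passed with array quality weights and with an offset of 5. For the change with the inhibitor, neither a member nor any other gene passed, and no member had an unadjusted p under 0.05 (limma), where 3.44% of all genes did.

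The members were also compared with each other across the 15 microglia libraries, as a description, since the libraries share their processing and differ in genes with signal. As deposited, 27 of 36 pairs of members had a positive Pearson r, and after the group means were subtracted 18 of 36 did. The closest pair as deposited was Mef2a with Maf (r = 0.81), and this fell to 0.06 within groups. Within groups the closest was Spi1 with Mef2c (r = 0.78), and the pair with the lowest r was Spi1 with Bhlhe41 (r = -0.79, and -0.53 as deposited). Cebpb had a negative r with all 8 other members as deposited, down to -0.45 with Runx1.

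Among 5700 protein-coding genes with a mean of at least 3 log2 FPKM in microglia, the most like each member within groups were found over the same 15 libraries. They were Coro1a, Sh3bp2 and Ap1b1 for Spi1 (r = 0.96, 0.96 and 0.95), Pttg1ip, Tcn2 and Vsir for Mef2a (r = 0.87, 0.86 and 0.85), Dcaf8, Prkcd and Rogdi for Mef2c (r = 0.95, 0.89 and 0.88) and Mtg2, Zfp710 and Traf3ip3 for Maf (r = 0.89, 0.86 and 0.85). For Runx1 they were Ccnl1, Aldoa and AC149090.1 (r = 0.92, 0.86 and 0.86), for Cebpa Npm1, 1110059G10Rik and Mrpl38 (r = 0.87, 0.79 and 0.79), for Cebpb Trir, Bri3 and Ddx21 (r = 0.90, 0.81 and 0.79), for Bhlhe41 Sat1, Timmdc1 and Tmf1 (r = 0.97, 0.96 and 0.96) and for Smad3 4932438A13Rik, Inafm1 and Slc38a2 (r = 0.89, 0.84 and 0.83). No member was among the 3 genes most like another member. As deposited, with group means kept, the r of these genes ran from -0.25 for Npm1 with Cebpa to 0.98 for Pttg1ip with Mef2a.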

How the data were processed

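RNA of sorted spinal cord microglia and astrocytes was purified on oligo(dT) beads, and amplified cDNA was cut with Tn5 for sequencing. This library type does not mark strand, so reads of a gene and an antisense partner cannot be told apart. The authors deposited 1 table of log2 FPKM. The study's methods name OmicSoft Array Studio 10.1.1.3 for alignment, quantification and normalization to this unit in a section that describes cultured cells, so its use for these sorted cells is likely but not stated. The cutoff for calls is the one the study gives for these sorted cells. The sorted values of the 30 libraries were identical, from 0 to 15.34, as quantile normalization gives, which can compress or shift differences that many genes share. Aligner, build, annotation release and offset are not given in the sources used here, and without read counts no counting interval was computed. The positions of 9 of 9 members equal those of GRCm38. A mark named confounded, not explained in these sources, is carried by 15717 genes and 6 members (not Spi1, Mef2c or Smad3). A gene was taken as without signal where its value lay in the lowest stretch of a library, in which values follow file order.

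Group labels gave 4, 6 and 5 mice per cell type, and p-values measure the spread between these libraries. limma 3.58.1 in R 4.3.3 (lmFit, eBayes with a variance trend, tested on simulated data) was fitted per cell type to all 3 groups, over 28957 genes in microglia and 30718 in astrocytes that varied, and across cell types to all libraries. Benjamini-Hochberg adjustment ran over all genes tested. The methods of the study name a paired test, but no label pairs mice of different groups. Exact permutation tests of the difference in means were two-sided. The members and gene lists were chosen with earlier results of these data known. All 9 members are named in each microglia comparison, and from other lists up to 3 rises and 3 falls with an adjusted p under 0.05, with paralogues and partners of a member. Genes most like a member have the highest Pearson r within groups. Klf2, Ikzf1, Sall1, Irf8, Tgfbr2, Nrros, Tgfb1, Smad7, Ly6c2 and Plac8 were named after their values were seen. Alternatives were a filter on low means, offsets of 0.1 and 5 in place of an assumed 1, median centring, array quality weights, no trend, fits of the compared groups only, genes with signal as covariate, a replicate block and each library left out. After the data were seen, genes without signal set to 0 and libraries of few genes left out were added. Promoter sequences were taken from RefSeq. Python 3.11.15, pandas 2.3.3, numpy 2.4.6 and scipy 1.17.1 were used. 1 gene of these lists is not reported here.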

Additional observations from a re-analysis of the deposited data

Results flagged for a closer look

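Within each group of 4 to 6 libraries, the highest and lowest value of every member was compared with the rest by Dixon's ratio. Of 54 groups tested, 4 held a library apart from the others, and chance alone marks about 1 group in 20. One was in microglia: Runx1 was at 3.53 log2 FPKM in EAE-RIPK1inh replicate 2, and the other 4 libraries ran from 4.50 to 4.82. Without this library the difference of Runx1 between EAE-RIPK1inh and EAE-vehicle microglia was 1.17 instead of 0.94. The remaining 3 were single high values among astrocyte libraries at or near no signal. Runx1 was at 1.71 in naive astrocytes replicate 4, with the others at most at 0.26, Cebpa was at 1.72 in naive astrocytes replicate 3, with the others at most at 0.35, and Cebpb was at 1.54 in EAE-vehicle astrocytes replicate 4, with the others at most at 0.42. Naive astrocytes replicate 4 also had the highest mean of 6 endothelial markers of all astrocyte libraries, 3.60. Its mean of microglial markers, 3.44, was the highest of the naive astrocyte libraries. The part of either in its Runx1 value was not tested.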

How the results depend on the processing

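Of 400 recomputed counts of members, 359 stayed within 1.5 times the first value, and of 567 recomputed changes of single members in microglia, 514 kept their direction and call. The first total includes counts that stayed at 0, and the second includes members called in neither fit. Neither total therefore measures how firm the calls are. In EAE-vehicle against naive microglia, 5 members in place of 3 had an adjusted p under 0.05 when genes with a mean log2 under 1 were dropped, which changed both the unadjusted p-values and the number of genes in the adjustment. Of all genes, 1719 passed with this filter against 1136 without it, out of fewer genes tested. In EAE-RIPK1inh against EAE-vehicle microglia, 1 member in place of 2 was called with that filter, with an offset of 0.1 or 5, with median centring, with the compared groups alone, with genes with signal as covariate and with genes without signal set to 0. With array quality weights 5 were called and 1 passed the adjusted threshold. Leaving out 1 library gave 0 to 3 calls, with 0 without EAE-vehicle replicate 5. In EAE-RIPK1inh against naive microglia, 1 member in place of 2 passed the adjusted threshold with an offset of 0.1, with the compared groups alone and without libraries of under 11000 genes with signal, and 1 to 2 with 1 library left out. In astrocytes, EAE-vehicle against naive gave 2 calls with an offset of 0.1 (Spi1 and Runx1), 1 with array quality weights (Spi1) and 0 to 1 with 1 library left out (Runx1 without naive replicate 4 or EAE-vehicle replicate 3 or 4, Spi1 without EAE-vehicle replicate 1), and EAE-RIPK1inh against EAE-vehicle gave 0 to 1 (Spi1 without EAE-vehicle replicate 6). The change with EAE differed between cell types for 2 members with an offset of 5 and for 2 with array quality weights. The causes were not tested.

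The direction reversed in members that were never called there. Between EAE-RIPK1inh and EAE-vehicle microglia, Spi1 ran from -0.0125 to 0.46, Cebpa from -0.0776 to 0.36 and Bhlhe41 from -0.40 to 0.13 with 1 library left out, and between EAE-RIPK1inh and naive microglia Spi1 ran from -0.50 to 0.0727.

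Same-numbered libraries did not deviate together (r from -0.16 to 0.24 over 15 pairs of groups, and in none were all pairs over 0.1). Libraries of 1 mouse need not deviate together, so this cannot show whether the number links libraries of a mouse. With the replicate number as a block, 5 members were called in EAE-vehicle against naive microglia, 0 in EAE-RIPK1inh against EAE-vehicle, 5 in EAE-RIPK1inh against naive with 1 past the adjusted threshold, and 1 (Spi1) in EAE-RIPK1inh against EAE-vehicle astrocytes. Over all genes, the block took calls in the microglia comparisons from 3473 to 3066, from 511 to 457 and from 2911 to 2672, in that order. Genes past the adjusted threshold in the last went from 791 to 440.

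With 4 to 6 libraries per group, an SE of 0.24 to 0.64 in microglia limits what can be seen, and genes at low values rest on an unknown offset.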
